A study of Mus musculus with 10 samples.

Results

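The genes described here are 32 genes that skeletal muscle uses for contraction, calcium handling and energy supply, followed through mouse tumours grown under the skin. They were chosen as the rows of the count table whose gene name equals 1 of 32 listed names, out of 55385 genes in the table. By textbook knowledge 14 of them belong to fast fibres, 5 to slow fibres and 13 to both classes. The rule reads names alone, but the names were listed with earlier results of these data known.

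RNA was sequenced from 10 samples, 5 labelled IL6 shRNA1 with the genotype IL6 knockdown, and 5 labelled control shRNA. The series text describes subcutaneous tumours grown from an ovarian tumour cell line, written APV245 in the sample labels and APC245 in the series text, that came from a tumour with Arid1a and Pik3ca mutations. All samples share this 1 line and the label of 1 batch, none was treated, and the control vector, pLKO.1-puro, carries a hairpin against no mammalian gene. The sample labels speak of tumour cells kept in DMEM medium and of no host, site, strain, age or sex, and they do not say whether the samples of a group came from separate cultures or animals, so p-values measure only the spread between these samples. Only 1 knockdown hairpin was sequenced. The total was 17905397 to 19934278 counts in the IL6 shRNA1 libraries and 18224751 to 22682346 in the control libraries.

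The knockdown named in the labels was not seen in the transcript of its target, which had few counts in every library. Il6, which encodes interleukin 6, had 20, 37, 40, 37 and 33 counts in IL6 shRNA1 libraries 1 to 5 and 38, 9, 48, 26 and 14 counts in control libraries 1 to 5. It stood at 1.73 ± 0.406 CPM (counts relative to library size, SD, n = 5) and 1.26 ± 0.639 CPM, a log2 fold change of 0.44 ± 0.36 (SE) with an adjusted p of 0.436 in edgeR's quasi-likelihood test. The groups are therefore named by their labels.

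Skeletal muscle contracts when myosin heads of the thick filament pull on actin of the thin filament, which happens once calcium binds the troponin complex. Fast fibres carry the myosin heavy chains Myh4, Myh1 and Myh2, the fast troponins and the parvalbumin that buffers calcium, while slow fibres carry Myh7 and the slow troponins. In the mouse a thin sheet of fast muscle, the panniculus carnosus, lies in the skin of the trunk, next to the place of a subcutaneous graft.

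The summed level of the fast-fibre genes differed between libraries more than that of the slow-fibre genes, and the difference cut across the 2 groups. The summed level of the 14 fast-fibre genes was 17.8, 726, 350, 489 and 3531 FPKM (fragments per gene length and library total) in IL6 shRNA1 libraries 1 to 5, and 79.9, 20.5, 362, 120 and 10.4 FPKM in control libraries 1 to 5. IL6 shRNA1 library 5 lay highest, and IL6 shRNA1 library 1, control library 2 and control library 5 lay lowest, so that each group held high and low libraries and the groups overlapped. The summed level of the 5 slow-fibre genes was 6.23, 14.2, 11.9, 11.8 and 26.1 FPKM in IL6 shRNA1 libraries 1 to 5, and 5.13, 5.09, 11.2, 7.08 and 2.75 FPKM in control libraries 1 to 5. Its highest and lowest libraries were the same as those of the fast-fibre sum, and the groups overlapped here too. From the highest to the lowest library the fast-fibre sum fell by 8.41 on the log2 scale and the slow-fibre sum by 3.25. The span of the slow-fibre sum depended on single genes. Without Tnnt1, its gene of highest mean FPKM, the sum spanned 5.06 on the log2 scale, against 8.31 for the fast-fibre sum without its own most abundant gene. Mybpc1 widened the slow-fibre span: it gave 14.4 of the 26.1 FPKM in IL6 shRNA1 library 5 and 0.145 of the 2.75 FPKM in control library 5. The span without Mybpc1 is not given here. Single genes of the classes overlapped in span. Mybpc1, the slow myosin binding protein, stood at 2.62, 21.3, 12.5, 10.95 and 67.2 CPM in IL6 shRNA1 libraries 1 to 5 and at 2.84, 2.09, 15.98, 8.28 and 0.712 CPM in control libraries 1 to 5. Its highest library stood 94.4-fold above its lowest, more than for the fast-fibre genes Myh2, at 53.4-fold, and Actn3, at 82.0-fold, and less than for the other 11 fast-fibre genes with counts in every library, at 118-fold to 7594-fold. The other slow-fibre genes with counts in every library spanned 2.62-fold (Tnnt1), 6.42-fold (Tnni1) and 23.5-fold (Tnnc1).

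**Figure D1:**
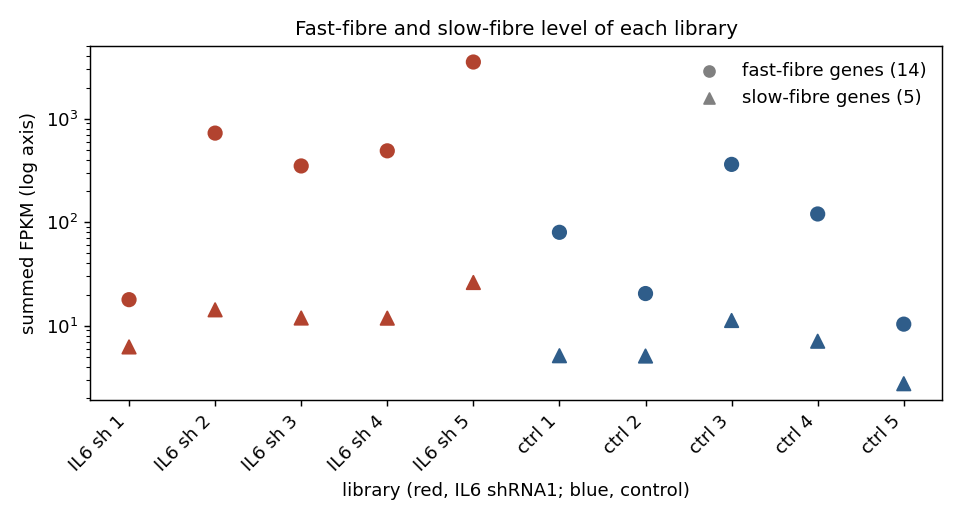
Summed FPKM (log axis) of the 14 fast-fibre genes (circles) and the 5 slow-fibre genes (triangles) in each library, IL6 shRNA1 in red and control in blue. The circles run from 10.4 to 3531 FPKM and the triangles from 2.75 to 26.1 FPKM, and both are highest in IL6 shRNA1 library 5 and lowest in control library 5.

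In the plot of fast-fibre and slow-fibre levels the pair of symbols of a library lies far apart where the fast-fibre level is high and close together in IL6 shRNA1 library 1 and control libraries 2 and 5. The ratio of the fast-fibre to the slow-fibre sum was 2.86, 51.0, 29.5, 41.4 and 135 in IL6 shRNA1 libraries 1 to 5, and 15.6, 4.02, 32.3, 16.97 and 3.77 in control libraries 1 to 5. Together the 32 genes took 0.0156%, 0.373%, 0.178%, 0.288% and 1.602% of all counts in IL6 shRNA1 libraries 1 to 5, and 0.0417%, 0.0167%, 0.199%, 0.0831% and 0.00835% in control libraries 1 to 5. The exact 95% binomial interval was 1.597% to 1.608% for IL6 shRNA1 library 5 and 0.00794% to 0.00878% for control library 5, which covers counting error only. In bulk RNA, fewer cells of a type and less RNA per cell cannot be told apart, so these levels measure muscle transcripts and not muscle fibres.

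The promoters of 5 of these genes are shown to set the letters beside the levels: Acta1, Ckm and Myh4, whose levels moved together through the libraries, and Myh1 and Tnnt1, which kept counts in the libraries where Myh4 and Ckm had few. Each window holds 300 bases, from 250 before to 50 after the RefSeq start, on the gene's own strand in build GRCm38.p6. The windows are chr8:123894726-123895025, minus strand, for Acta1, chr7:19410844-19411143, plus strand, for Ckm, chr11:67237562-67237861, plus strand, for Myh4, chr11:67199852-67200151, plus strand, for Myh1, and chr7:4515926-4516225, minus strand, for Tnnt1. Capitals mark the E-box CANNTG, the MCAT motif CATTCC, the CArG box (CC, 6 letters A or T, GG) and the MEF2 box (C or T, TA, 4 letters A or T, TA, A or G), each searched on both strands.
Acta1: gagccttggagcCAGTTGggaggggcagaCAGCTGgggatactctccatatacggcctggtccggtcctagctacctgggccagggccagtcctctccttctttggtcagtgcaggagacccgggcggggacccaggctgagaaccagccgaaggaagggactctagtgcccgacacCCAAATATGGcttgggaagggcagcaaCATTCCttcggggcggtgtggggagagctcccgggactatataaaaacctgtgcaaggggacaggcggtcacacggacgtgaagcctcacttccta
Ckm: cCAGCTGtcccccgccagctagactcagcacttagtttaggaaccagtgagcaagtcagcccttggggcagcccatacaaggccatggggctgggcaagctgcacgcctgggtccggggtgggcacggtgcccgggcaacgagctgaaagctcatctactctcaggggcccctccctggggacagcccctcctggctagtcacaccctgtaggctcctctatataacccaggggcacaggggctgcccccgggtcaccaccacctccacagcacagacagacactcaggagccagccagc
Myh4: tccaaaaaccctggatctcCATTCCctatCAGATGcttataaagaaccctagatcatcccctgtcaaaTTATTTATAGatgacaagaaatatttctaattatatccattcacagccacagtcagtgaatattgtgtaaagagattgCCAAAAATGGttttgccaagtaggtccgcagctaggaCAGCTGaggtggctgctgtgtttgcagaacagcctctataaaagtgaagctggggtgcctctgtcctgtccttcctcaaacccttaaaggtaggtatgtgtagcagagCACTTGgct
Myh1: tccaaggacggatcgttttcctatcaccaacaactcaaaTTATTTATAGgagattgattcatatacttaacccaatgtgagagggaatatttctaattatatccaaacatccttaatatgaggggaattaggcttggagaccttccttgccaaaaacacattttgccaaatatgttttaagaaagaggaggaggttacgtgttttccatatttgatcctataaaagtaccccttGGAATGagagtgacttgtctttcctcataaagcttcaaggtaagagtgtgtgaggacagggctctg
Tnnt1: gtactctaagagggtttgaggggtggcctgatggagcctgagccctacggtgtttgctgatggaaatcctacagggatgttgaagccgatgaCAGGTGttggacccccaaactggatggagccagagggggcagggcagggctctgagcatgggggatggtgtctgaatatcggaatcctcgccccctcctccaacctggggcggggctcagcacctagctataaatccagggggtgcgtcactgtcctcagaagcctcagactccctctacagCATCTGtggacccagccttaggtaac

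Of the 32 genes, 25 had a RefSeq window, some with several starts, which gave 30 windows. The 7 without one were Tnnt3, Tnni2, Actn3, Neb, Myoz1, Tcap and Jph1. The E-box CAGCTG, a form that the myogenic factors MyoD and myogenin are known to bind, was found in 16 of the 30 windows, against 16.3% of 32851 mouse windows of the same length. Any E-box CANNTG, which takes in CAGCTG and CACCTG, was found in 26 of 30 windows against 72.3% of all, and CACCTG in 8 of 30 against 20.2%. CATTCC was found in 10 of 30 windows against 14.7% of all. A CArG box, the motif of serum response factor, was found in Acta1 and Myh4 and in 1.6% of all windows. A MEF2 box was found in 4 of 30 windows, those of Myh1, Myh4, Pvalb and Ttn, and in 3.2% of all. TATAAA on the gene's strand was found in 5 of 30 windows, those of Acta1, Myh1, Myh2, Myh4 and Tnnt1, against 8.3% of all. Among the promoters shown, Myh1 held no E-box, Tnnt1 held no CAGCTG, and Acta1, Ckm and Myh4 each held 1. A few genes with and without CAGCTG, picked with values in view, are set beside their counts in IL6 shRNA1 library 1 and control libraries 2 and 5. Des and Eno3 held CAGCTG and kept 383, 462 and 220 and 159, 254 and 201 counts there. Pvalb and Mybpc2 held none and had 6, 3 and 1 and 15, 16 and 4. Acta1, with CAGCTG, kept 415, 655 and 150, and Myh1, without it, 211, 200 and 46. Ckm and Myh4 held CAGCTG and had 6, 19 and 7 and 18, 23 and 6. A link of motif and level was not tested.

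Of the thick filament, 8 genes were followed, and the motor protein of the fastest fibres led the differences between libraries. Myh4, the myosin heavy chain of type IIb fibres (gene ENSMUSG00000057003.12, chr11:67238029-67260446, plus strand), stood at 0.962, 403, 169, 232 and 2703 CPM in IL6 shRNA1 libraries 1 to 5 and at 52.3, 1.12, 177, 49.3 and 0.356 CPM in control libraries 1 to 5. The 3 lowest libraries held 18, 23 and 6 counts of it, and IL6 shRNA1 library 5 held 51067, and the groups overlapped. Its fitted log2 fold change was 3.64 ± 1.74 (SE), and the 95% interval reached from -0.26 to 7.54 (adjusted p = 0.185).

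Myh1, the chain of type IIx fibres, stood at 11.3, 89.9, 33.7, 32.8 and 323 CPM in IL6 shRNA1 libraries 1 to 5 and at 5.64, 9.74, 46.7, 23 and 2.73 CPM in control libraries 1 to 5. Again IL6 shRNA1 library 5 was highest and control library 5 lowest, but control library 1 fell below IL6 shRNA1 library 1 and control library 2, the reverse of Myh4. Myh2, the chain of type IIa fibres, stood at 3.79, 15.7, 7.26, 1.95 and 56.6 CPM in IL6 shRNA1 libraries 1 to 5 and at 1.06, 5.55, 18.9, 4.24 and 1.13 CPM in control libraries 1 to 5. It was lowest in control libraries 1 and 5 and also low in IL6 shRNA1 library 4, where Myh4 was high. The log2 fold changes were 2.47 ± 1.02 (SE) for Myh1 and 1.45 ± 1.03 for Myh2, with adjusted p of 0.134 and 0.371 in the same test.

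Myh7, the slow and cardiac chain, was near the limit of detection, with at most 20 counts in any library. It stood at 0.321, 0.148, 0.437, 0.389 and 0.265 CPM in IL6 shRNA1 libraries 1 to 5 and at 0.849, 0.146, 0.0859, 0.207 and 0 CPM in control libraries 1 to 5. Its highest library was control library 1, it did not follow the fast-fibre level, and it failed the filter on low counts. The 0 counts of control library 5 allow up to 3 counts in its total.

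The mix of the 4 myosin heavy chains therefore differed between the libraries with many and with few muscle transcripts. Myh4 made up 6.39%, 80.4%, 81.5%, 87.6% and 88.4% of the summed FPKM of the 4 genes in IL6 shRNA1 libraries 1 to 5, and 88.5%, 7.41%, 74.6%, 65.9% and 9.15% in control libraries 1 to 5. It was the most abundant chain in 7 libraries, and Myh1 was the most abundant in the remaining 3, at 70.9% in IL6 shRNA1 library 1, 61.0% in control library 2 and 66.4% in control library 5. Those 3 libraries held only 306, 340 and 71 counts of the 4 genes. The exact 95% interval of the Myh4 share of these counts was 3.52% to 9.14% in IL6 shRNA1 library 1, 4.34% to 9.98% in control library 2 and 3.16% to 17.5% in control library 5, all far under the lower bound of 61.7% in control library 4. Exons of Myh1 share 8.1% of their bases with Myhas on the opposite strand, and whether the counting used strand is not given in the sources used here, so reads of the 2 genes cannot be told apart there.

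**Figure D2:**
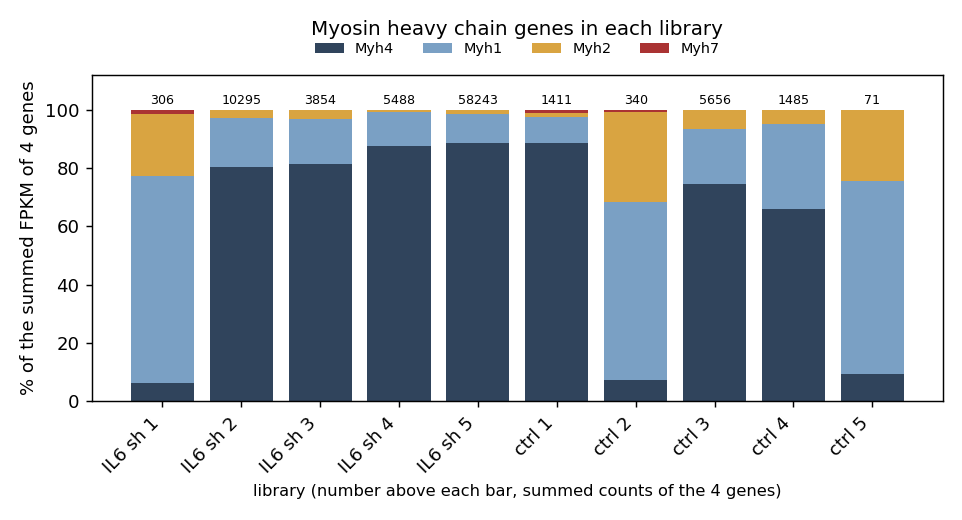
Share of Myh4, Myh1, Myh2 and Myh7 in the summed FPKM of these 4 genes, in percent, 1 bar per library, with the summed counts of the 4 genes above each bar. Myh4 takes 65.9% to 88.5% in 7 libraries and 6.39% to 9.15% in IL6 shRNA1 library 1 and control libraries 2 and 5, whose bars rest on 71 to 340 counts.

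The bars of the myosin shares fall into libraries led by Myh4 and libraries led by Myh1, and both kinds are present in each group. Mylpf, the regulatory light chain of fast myosin, had the highest mean level of the thick filament genes, 80.3 FPKM over all libraries, next to 62.1 FPKM for Myh4. It stood at 6.20, 136, 53.5, 71.3 and 484 CPM in IL6 shRNA1 libraries 1 to 5 and at 12.5, 6.53, 64.9, 19.8 and 3.68 CPM in control libraries 1 to 5. The high and low libraries were those of Myh4, with a narrower range. Myl1, the essential light chain of fast fibres, had a log2 fold change of 3.10 ± 1.26 (SE). Mybpc2 and Mybpc1, the fast and slow myosin binding proteins, had 2.85 ± 1.45 and 1.93 ± 0.94. None of the 7 tested thick filament genes passed the test, with adjusted p from 0.122 to 0.371, though 3 had an unadjusted p under 0.05 and DESeq2 called 2 of the 7 higher. Over all tested genes 15.5% had an unadjusted p under 0.05 on the higher side, and 5.62% were called higher by edgeR and 11% by DESeq2.

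Of the thin filament, 8 genes were followed, and the only gene of the 32 that passed the test was among them. Acta1, skeletal alpha actin, had the highest mean level of all 32 genes, 417 FPKM. It stood at 22.2, 993, 436, 747 and 3392 CPM in IL6 shRNA1 libraries 1 to 5 and at 77.6, 31.9, 519, 191 and 8.90 CPM in control libraries 1 to 5. The 10 libraries stood in the same order as by the fast-fibre sum, the groups overlapped, and the 3 lowest still held 415, 655 and 150 counts.

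Tnnt1, the slow troponin T that ties the troponin complex to tropomyosin (gene ENSMUSG00000064179.13, chr7:4504570-4516382, minus strand), was higher in the IL6 shRNA1 libraries. It stood at 8.39, 11.1, 10.9, 12 and 13.4 CPM in IL6 shRNA1 libraries 1 to 5 and at 7.04, 6.91, 8.68, 6.83 and 5.10 CPM in control libraries 1 to 5. Only IL6 shRNA1 library 1 lay below a control library, control library 3. The means were 11.2 ± 1.83 and 6.91 ± 1.27 CPM (SD, n = 5), a log2 fold change of 0.69 ± 0.16 (SE) with an adjusted p of 0.0219 in edgeR's quasi-likelihood test. The call was lost without IL6 shRNA1 library 2, 4 or 5 or without control library 2, with adjusted p of 0.0532, 0.0501, 0.0535 and 0.0535, and it was also lost without the 3 libraries farthest out on the first principal component, which holds 56.5% of the variance between libraries, with 0.184. With sample number as a replicate block it was lost as well, at 0.0751 (2.32% of all genes were called higher in that fit).

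Tnnt3, the fast troponin T, stood at 4.44, 222, 115, 162 and 1082 CPM in IL6 shRNA1 libraries 1 to 5 and at 19.6, 4.14, 106, 33.5 and 2.19 CPM in control libraries 1 to 5. Its libraries overlapped between the groups and spanned a far wider range than those of Tnnt1. The ratio of Tnnt1 to Tnnt3 in FPKM was 1.36 in IL6 shRNA1 library 1, 1.20 in control library 2 and 1.67 in control library 5, and lay between 0.00889 and 0.258 in the other libraries. Slow troponin T thus exceeded fast troponin T in the same 3 libraries in which Myh1 led the myosins.

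Tnni2, the fast inhibitory troponin, stood at 1.71, 94.3, 46.6, 60.7 and 393 CPM in IL6 shRNA1 libraries 1 to 5 and at 7.89, 2.14, 46.1, 15.5 and 1.30 CPM in control libraries 1 to 5. Tnni1, the slow inhibitory troponin, stood at 2.35, 6.13, 3.77, 4.19 and 7.36 CPM in IL6 shRNA1 libraries 1 to 5 and at 1.15, 2.58, 4.51, 2.48 and 1.19 CPM in control libraries 1 to 5. Both overlapped between the groups and had IL6 shRNA1 library 5 on top, but Tnni1 moved within a narrow range. Tnnc1, the slow and cardiac calcium-binding troponin, stood at 1.55, 2.67, 2.89, 2.29 and 4.18 CPM in IL6 shRNA1 libraries 1 to 5 and at 0.721, 1.07, 1.89, 1.40 and 0.178 CPM in control libraries 1 to 5. Only IL6 shRNA1 library 1 overlapped with a control library, control library 3. The log2 fold changes were 3.25 ± 1.34 (SE) for Tnnt3, 3.02 ± 1.25 for Tnni2, 0.99 ± 0.41 for Tnni1 and 1.35 ± 0.45 for Tnnc1, with adjusted p of 0.135, 0.136, 0.131 and 0.0744.

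Tnnc2, the fast calcium-binding troponin, was all but absent from the table, although the 2 other fast troponins were abundant. It stood at 0, 0.0494, 0.0546, 0.146 and 0.106 CPM in IL6 shRNA1 libraries 1 to 5 and at 0, 0, 0.0430, 0 and 0 CPM in control libraries 1 to 5, with at most 3 counts in any library. In the annotation, 74.0% of its 800 exonic bases are shared with exons of Ube2c on the opposite strand, and whether reads on shared bases were counted is not given in the sources used here. No level of fast troponin C can be read from these counts. Neb, the ruler of thin filament length, had a log2 fold change of 2.54 ± 0.97 (SE) and an adjusted p of 0.113.

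Of the Z-disc and the elastic scaffold, 6 genes were followed, and all had a positive fold change that missed the threshold. Des, the intermediate filament that links Z-discs and is also made in smooth muscle, stood at 20.5, 315, 184, 369 and 562 CPM in IL6 shRNA1 libraries 1 to 5 and at 23.2, 22.5, 167, 131 and 13 CPM in control libraries 1 to 5. It kept 383, 462 and 220 counts in the 3 libraries lowest in fast-fibre genes. Actn3, the alpha-actinin of fast fibres, stood at 9.67, 145, 76.3, 139 and 729 CPM in IL6 shRNA1 libraries 1 to 5 and at 22.2, 11.9, 73.9, 40.2 and 8.90 CPM in control libraries 1 to 5. Both genes overlapped between the groups, and the range of Des was narrower than that of Acta1. Per length, Des reached 0.0678 of the Acta1 level in IL6 shRNA1 library 5 and 0.6001 of it in control library 5.

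The log2 fold changes were 2.02 ± 0.92 (SE) for Des and 2.80 ± 1.02 for Actn3, with adjusted p of 0.170 and 0.101. Ttn, the giant spring of the sarcomere, had 3.26 ± 1.15 with an adjusted p of 0.0932, and Myoz1, which binds calcineurin at the Z-disc of fast fibres, had 3.51 ± 1.31 with 0.106. Tcap, which caps titin, and Actn2, the alpha-actinin of all fibres and the heart, had 2.699 ± 1.22 and 1.72 ± 0.82. Of these 6 genes 3 had an unadjusted p under 0.05, against 15.5% of all genes on the higher side, none was called by edgeR, against 5.62%, and DESeq2 called 3 higher, against 11%.

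Of excitation and calcium handling, 6 genes were followed. Atp2a1, the pump that returns calcium to the sarcoplasmic reticulum of fast fibres, stood at 2.19, 188, 95, 163 and 1665 CPM in IL6 shRNA1 libraries 1 to 5 and at 36.0, 3.90, 110, 49.8 and 1.30 CPM in control libraries 1 to 5. Pvalb, the calcium buffer of the fastest fibres, stood at 0.321, 57.1, 39.1, 24 and 419 CPM in IL6 shRNA1 libraries 1 to 5 and at 6.49, 0.146, 18.3, 3.62 and 0.0593 CPM in control libraries 1 to 5. Pvalb had the highest fitted fold change of the tested genes, a log2 value of 4.20 ± 1.52 (SE) with an adjusted p of 0.0985, and it had only 6, 3 and 1 counts in the 3 lowest libraries. Exons of Atp2a1 share 21.9% of their bases with Rabep2 on the opposite strand, and those of Ckm and Mb share 15.5% and 31.9% with other genes.

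Jph1, the junctophilin that holds the surface membrane against the calcium store, was the only one of the 30 tested genes whose groups did not overlap. It stood at 23.3, 23.3, 18.9, 18.4 and 49.3 CPM in IL6 shRNA1 libraries 1 to 5 and at 17.1, 14.9, 15.3, 15.2 and 11.4 CPM in control libraries 1 to 5. Across all tested genes, 10.9% had groups that did not overlap. Its log2 fold change was 0.85 ± 0.26 (SE) with an adjusted p of 0.0602, and it was called without IL6 shRNA1 library 5, at 0.0449. Over the alternative fits by edgeR, DESeq2 and limma its adjusted p ran from 0.0110 to 0.160, so that fit was not alone in calling Jph1. Unlike Pvalb and Atp2a1 it had at least 193 counts in every library, and outside IL6 shRNA1 library 5 it lay between 11.4 and 23.3 CPM.

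Jph1 lies on chromosome 1, as do Myl1, Tnni1, Casq1, Des and Cacna1s. Of the 917 tested genes of that chromosome 268 were called higher and 1 lower, with a median log2 fold change of 0.32, against -0.01 over all genes. What this shift adds to the 6 genes was not tested. Casq1, which binds calcium in the store of fast fibres, Ryr1, the release channel, and Cacna1s, its voltage sensor, had log2 fold changes of 2.99 ± 1.20 (SE), 2.53 ± 1.06 and 2.69 ± 1.02. All 6 genes of this role had an unadjusted p under 0.05 (15.5% of all genes on the higher side), edgeR called none (5.62% of all genes higher), and DESeq2 called 4 higher (11%).

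Of energy and oxygen supply, 4 genes were followed. Ckm, the muscle creatine kinase that recharges ATP, stood at 0.321, 149, 75.3, 114 and 895 CPM in IL6 shRNA1 libraries 1 to 5 and at 13.5, 0.925, 66.4, 24.1 and 0.415 CPM in control libraries 1 to 5. Eno3, the enolase of muscle glycolysis, stood at 8.50, 102, 49.4, 73.1 and 359 CPM in IL6 shRNA1 libraries 1 to 5 and at 17.2, 12.4, 50.8, 26.7 and 11.9 CPM in control libraries 1 to 5. The order of the libraries was alike, but the low end differed: Ckm had 6, 19 and 7 counts in the 3 lowest libraries and Eno3 had 159, 254 and 201. Pygm, which releases glucose from glycogen, had a log2 fold change of 3.42 ± 1.31 (SE), and Mb, the oxygen store myoglobin, had 2.19 ± 1.02. Ckm and Eno3 had 3.54 ± 1.55 and 2.31 ± 0.85. An unadjusted p under 0.05 was found for 3 of these 4 genes, next to 15.5% of all genes on the higher side. None of the 4 was called by edgeR and 2 were called higher by DESeq2, which called 5.62% and 11% of all genes higher.

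**Figure D3:**
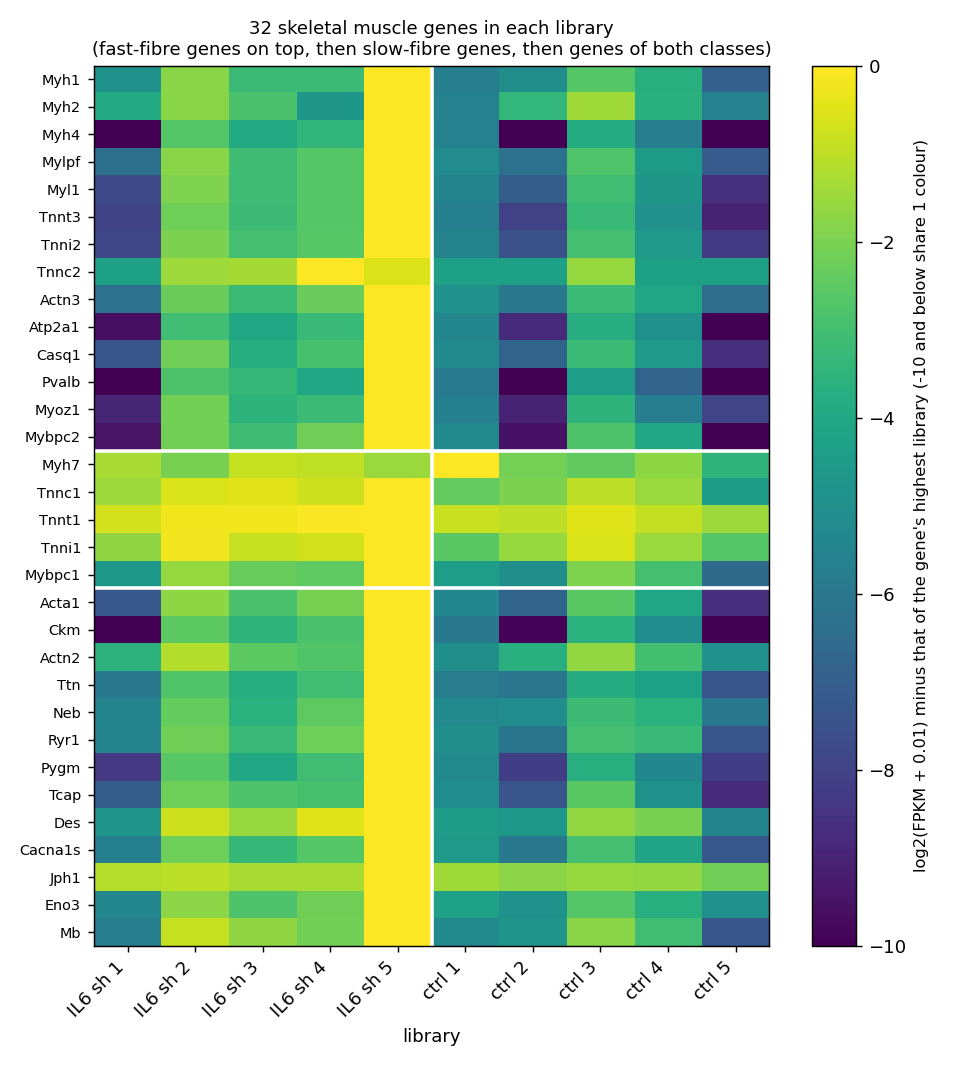
Heat map of the 32 genes (rows) in the 10 libraries (columns), as log2(FPKM + 0.01) minus that of the gene's highest library, with -10 and below in 1 colour, IL6 shRNA1 libraries left of the vertical line. IL6 shRNA1 library 5 is the brightest column for 30 of the 32 genes, and the slow-fibre rows Tnnt1 and Tnni1 and the row of Jph1 change least.

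The heat map of the 32 genes shows 1 order of libraries repeated in most rows. IL6 shRNA1 library 5 was the highest library for 30 of the 32 genes, the exceptions being Tnnc2 and Myh7, against 15.1% of all tested genes. The 3 lowest libraries were IL6 shRNA1 library 1, control library 2 and control library 5 for 21 of the 32 genes, against 4.93% of all tested genes, and for 11 of the 14 fast-fibre genes against 1 of the 5 slow-fibre genes. A fibre level was formed for each library as the mean log2 CPM of Acta1, Ckm, Myh4, Mylpf, Tnnt3 and Atp2a1. Pearson's r of each gene with this level is a description over 10 libraries that share their depth and scaling. For a gene that is part of the level, r was taken with the mean of the remaining genes of the level. The r was highest for Tnnt3, at 0.996, taken in this way. It was lowest for Myh7, at 0.20, Jph1, at 0.66, and Myh2, at 0.69. For Tnnt1, Tnnc1 and Tnni1 it was 0.85, 0.84 and 0.83.

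**Figure D4:**
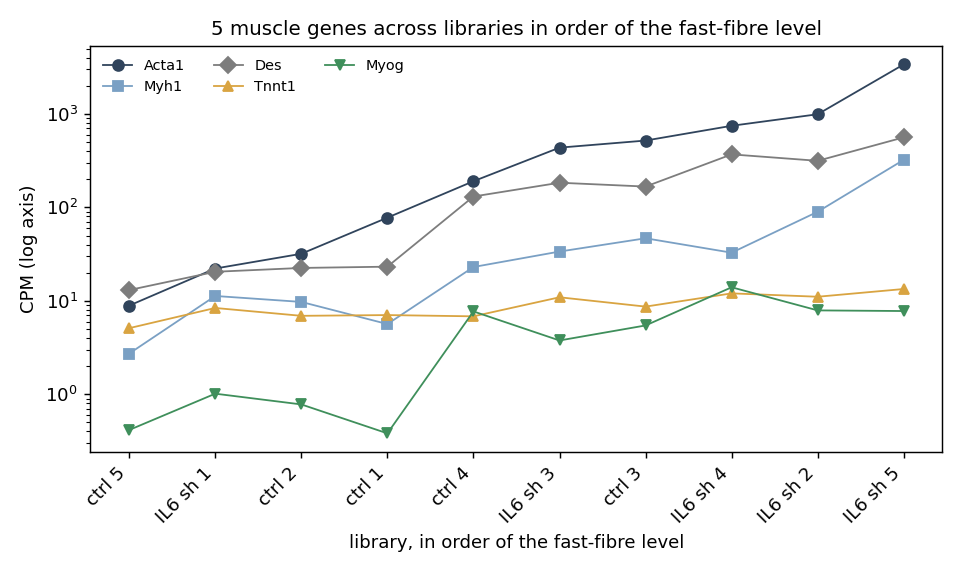
CPM (log axis) of Acta1, Myh1, Des, Tnnt1 and the myogenic factor Myog in the 10 libraries, put in order of the summed FPKM of the 14 fast-fibre genes. Acta1 climbs from 8.90 to 3392 CPM, Tnnt1 stays between 5.10 and 13.4 CPM, and Myog lies at or under 1.02 CPM in the 4 lowest libraries and at 3.77 CPM or more in the other 6.

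The lines of the 5 genes separate by slope. Myog, the factor that turns on fibre genes as myoblasts fuse, was plotted after its values were seen. It stood at 1.02, 7.90, 3.77, 14 and 7.78 CPM in IL6 shRNA1 libraries 1 to 5 and at 0.382, 0.779, 5.45, 7.71 and 0.415 CPM in control libraries 1 to 5. Its highest library was IL6 shRNA1 library 4, not library 5. Relative to Acta1 in FPKM it ranged from 0.00236 in IL6 shRNA1 library 5 to 0.0479 in control library 5.

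Between the groups, the muscle genes had large fold changes with large errors. Of the 32 genes 30 passed the filter on low counts, Tnnc2 and Myh7 being the others, and 1 was called higher (Tnnt1), 0 were called lower and 29 were not called, at an adjusted p under 0.05. Over all 15064 tested genes 5.62% were called higher and 6.16% lower, 11.8% in either direction, so the count among the muscle genes lies near or under the background. All 30 had a positive log2 fold change, against 47.9% of all genes, and 27 had at least a 2-fold one, against 5.3% of all genes. Since the genes follow 1 order of libraries, these counts are not 30 separate observations. An unadjusted p under 0.05 on the higher side was found for 21 of the 30, against 15.5% of all genes. That count was 3 without IL6 shRNA1 library 5, 6 without control library 1, 7 without control library 2, 10 without control library 4 and 6 without control library 5, and 18 to 30 without each of the other libraries, fits in which 12.5% to 18.7% of all genes had one. It also turned on the method: it was 29 with DESeq2 (17.7% of all genes), 5 with limma voom (15%), 4 with the replicate block (13.1%), and 8 and 6 with limma on FPKM with a pseudocount of 1 (13.7%) and of 0.1 (13.8%).

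**Figure D5:**
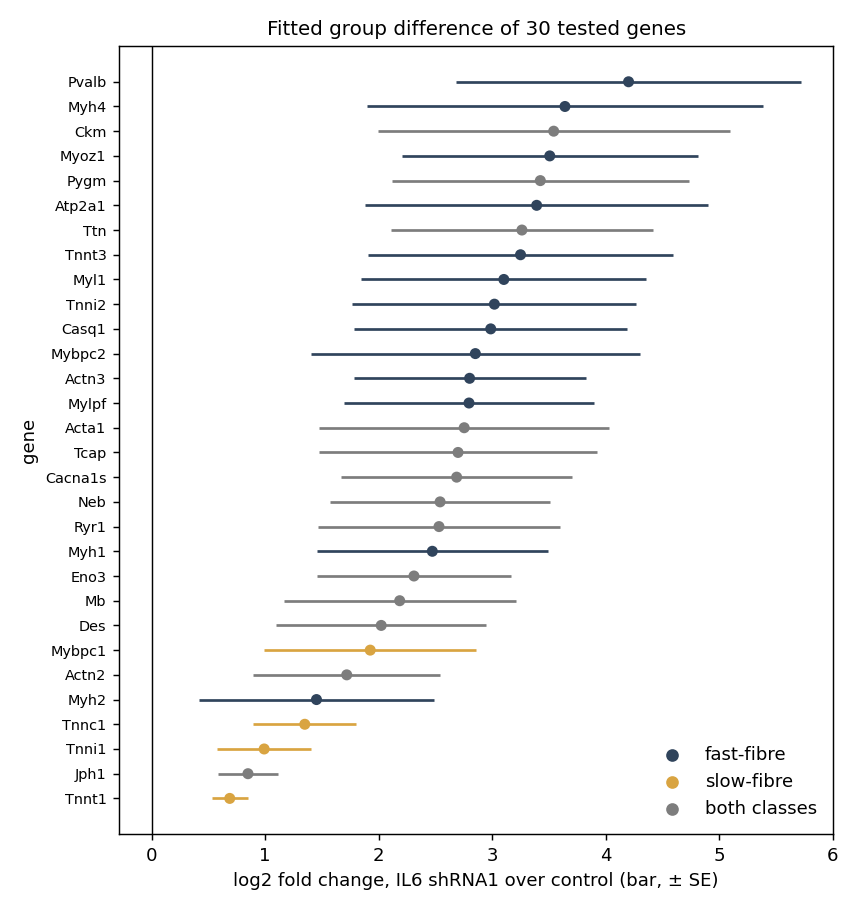
Fitted log2 fold change of IL6 shRNA1 over control for the 30 tested genes, with bars of 1 SE, coloured by fibre class. The points run from 0.69 for Tnnt1 to 4.20 for Pvalb, and the slow-fibre genes lie in the lower part with the shortest bars among them.

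The plot of fitted differences sets the size of a difference beside its error. The median log2 fold change was 3.02 for the 13 tested fast-fibre genes, 1.17 for the 4 tested slow-fibre genes and 2.54 for the 13 genes of both classes, and 2.73 over all 30, against -0.01 over all genes tested. Of the fast-fibre genes 0 were called by edgeR, with adjusted p from 0.0985 to 0.371, while 10 had an unadjusted p under 0.05 and DESeq2 called 8, next to the shares of 15.5% and 11% over all genes. Whether fast-fibre and slow-fibre genes differ in their response was not tested. The gene called had the smallest fold change of the 30.

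The number of calls depended on the method and on single libraries. DESeq2 called 16 of the 30 genes higher, against 11% of its tested genes in that direction. Without IL6 shRNA1 library 1, the IL6 shRNA1 library with few muscle transcripts, edgeR called 9 higher, against 9.47% of genes: Tnnt1, Tnnc1, Eno3, Actn3, Myoz1, Pvalb, Ttn, Neb and Pygm. It called 0 without IL6 shRNA1 library 2 (2.72% of all genes), IL6 shRNA1 library 4 (3.83%) or control library 2 (3.01%), fits in which 18, 20 and 7 of the muscle genes had an unadjusted p under 0.05. It also called 0 without the 3 libraries farthest out on the first principal component, IL6 shRNA1 library 5, control library 2 and control library 5, a fit that called 0.846% of all genes higher and gave 2 of the muscle genes an unadjusted p under 0.05. In that fit the log2 fold change of Myh2 turned to -0.18. On log2(FPKM + 1), limma called Tnnt1 and Tnnc1, against 4.49% of genes.

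The genes were also read beside a list of 61 other skeletal muscle genes, of which 56 were tested. The list had 1 gene called higher and 0 lower, against 5.62% and 6.16% of all genes, and 33 with an unadjusted p under 0.05, against 15.5% on the higher side. All 56 had a positive log2 fold change, against 47.9% of all genes, with a median of 2.07 against -0.01. DESeq2 called 22 of them higher, against 11%. The count of 33 was 7 with limma voom and with the replicate block (15% and 13.1% of all genes), and 4 to 46 when each library was left out in turn (12.5% to 18.7%), lowest without IL6 shRNA1 library 5. The called gene was Chrnb1, a subunit of the acetylcholine receptor of the nerve-muscle synapse, at 7.70, 9.73, 12, 11.3 and 12.8 CPM in IL6 shRNA1 libraries 1 to 5 and at 6.03, 3.70, 7.30, 7.50 and 4.92 CPM in control libraries 1 to 5. Its groups did not overlap, and its log2 fold change was 0.86 ± 0.21 (SE) with an adjusted p of 0.0253. Without IL6 shRNA1 library 1 the list had 18 calls, and without IL6 shRNA1 library 2, 4 or 5 or control library 5 it had 0. The fits without IL6 shRNA1 library 5 and without control library 5 called 3.12% and 2.81% of all genes higher.

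The 6 most abundant genes of that list by mean CPM were Jph2, Xirp2, Srl, Cmya5, Fbxo32 and Nrap. Jph2, a junctophilin also made in the heart, stood at 66.2, 88.7, 70.8, 66.2 and 159 CPM in IL6 shRNA1 libraries 1 to 5 and at 35.1, 69.3, 47.2, 42.1 and 77.1 CPM in control libraries 1 to 5. Xirp2, an actin-binding repeat protein, reached 190 CPM in IL6 shRNA1 library 5 and 76.4 CPM in control library 3, and it fell to 0.475 CPM in control library 5. Cmya5, with 2.66 ± 0.95 (SE), and Nrap, with 1.99 ± 0.90, had the highest log2 fold changes of these 6, and Fbxo32, a ubiquitin ligase of muscle atrophy, had the lowest, 0.68 ± 0.25. Smpx had 0 counts in all 10 libraries, and Myl2, Myl3, Fbp2 and Dhrs7c also failed the filter.

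By the likeness of their levels to the fibre level over the 10 libraries, the 10 nearest genes outside the 32 were Eef1a2, Stk40, Trim72, Art1, Igfn1, Unc45b, Clip4, Trdn, Trim54 and Pdk4, with Pearson's r from 0.978 to 0.989. Eef1a2, the elongation factor of muscle and neurons, came first. Art1, Trdn and Trim54 were in the list of other skeletal muscle genes. Stk40 had the narrowest range of the 10, from 498 to 1210 counts, so its r rests on small differences. Of 14725 genes compared, 205 had an r of at least 0.9, among them 34 of the 60 compared genes of the list.

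Markers of other tissues were read in the same libraries. The sum of 12 keratinocyte markers, led by Krt14 and Krt5, was 1128 CPM in IL6 shRNA1 library 5. It was 32.6 to 151 CPM in the other 9 libraries, so the library highest in muscle transcripts was also highest in skin transcripts. The top rank was not particular to skin, since the adipocyte, cardiac, leukocyte, endothelial and erythroid sums given below were also highest in that library. Their lead over the next library was smaller than that of the keratinocyte sum. It was 148 against 104 CPM for adipocyte, 72.1 against 39.6 CPM for cardiac and 370 against 244 CPM for endothelial markers. For leukocyte markers it was 5464 against 4968 CPM, and for erythroid markers 9.63 against 9.34 CPM. The smooth muscle sum was highest in IL6 shRNA1 library 3 and the Schwann cell sum in IL6 shRNA1 library 1. All 12 keratinocyte markers had counts in IL6 shRNA1 library 5. Each of the other 9 libraries had 2 of the 12 at 0, not always the same 2. The sum of 12 adipocyte markers, led by Pnpla2 and Fabp4, was 43.0 to 148 CPM in the IL6 shRNA1 libraries and 40.9 to 67.5 CPM in the control libraries, highest in IL6 shRNA1 library 5. The sum of 10 smooth muscle markers, led by Acta2 and Smtn, was 1932 to 2661 CPM and 1806 to 2491 CPM, and IL6 shRNA1 library 5 was not its highest library. Of the smooth muscle markers 2 of 8 tested were called higher, and of the keratinocyte and adipocyte markers 0 by edgeR's quasi-likelihood test.

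The sum of 10 cardiac markers, led by Myl4 and Tnnt2, was 16.1 to 72.1 CPM in the IL6 shRNA1 libraries and 11.2 to 23.8 CPM in the control libraries, and 1 of 4 tested was called higher, Tnnt2. The cardiac myosin Myh6 had at most 7 counts and Nppa at most 2 counts in any library. Actc1, another gene of the cardiac list, reached 664 counts in IL6 shRNA1 library 5. Myl2 and Myl3 stand in both the cardiac list and the list of other skeletal muscle genes, so the cardiac sum is not separate from skeletal muscle. The sum of 10 leukocyte markers, led by Cd74 and Lyz2, was 2725 to 5464 CPM in the IL6 shRNA1 libraries and 1002 to 2810 CPM in the control libraries, with 6 of 9 tested called higher. The sum of 8 endothelial markers, led by Kdr and Pecam1, was 189 to 370 CPM and 153 to 224 CPM. Of 8 Schwann cell markers, led by Pmp22 and Mbp, the sum was 76.6 to 95.8 CPM and 88.4 to 95.04 CPM, and of 6 erythroid markers, led by Hbb-bs and Hba-a1, 1.87 to 9.63 CPM and 0.931 to 5.47 CPM. The part of these tissues in the group differences of the muscle genes was not tested.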

How the data were processed

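RNA of 10 mouse samples, 5 labelled IL6 shRNA1 and 5 labelled control shRNA, was used. Per the submitters' processing notes, the build was mm10 (GRCm38) and the tools were STAR 2.7.0f, featureCounts of Subread 1.6.4, Trim Galore 0.6.6, FastQC 0.11.9, SAMtools 1.11 and R 4.0.4. Not given in the sources used here are the strand setting, the annotation release, the treatment of reads on shared exons and the FPKM tool. The deposited counts are whole numbers per gene with no normalization by the authors. The deposited FPKM values equal those counts over a gene length constant across libraries and the library total, checked on the tables.

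Counts were tested in R 4.3.3 with edgeR 4.0.16 (filterByExpr by group with a minimum count of 10, TMM factors, robust quasi-likelihood fit, Benjamini-Hochberg adjustment over 15064 genes, call at an adjusted p under 0.05). CPM values use the TMM factors, and log2 levels add a prior of 0.5. The 32 genes, their fibre classes and roles and the marker lists were chosen with earlier results of these data known. Values in every library were given, by rule, for called genes, the 4 myosin heavy chains, the troponins and the 2 genes of highest mean FPKM per role. From the other skeletal muscle list, called genes and the 6 of highest mean CPM were named, then the 10 genes most like the fibre level and the 2 most abundant markers per tissue. Jph1, Myog, Smpx, Myh6 and Nppa, and whatever else is singled out, were picked with values in view. Of the lists, 1 gene is not reported here. Alternatives were RLE and upper-quartile scaling, other filters, DESeq2 1.42.0, limma 3.58.1 (voom, and FPKM with pseudocounts of 1 and 0.1), no robust dispersion, the replicate block and the omission of each library. The omission of 3 libraries and the fibre level as a covariate were added after seeing the data. On simulated counts of 15064 genes at a dispersion of 0.1 the test recovered 42% of 2-fold and 100% of 4-fold changes, with 5 false calls. The estimated dispersion was above 0.1 for 28 of the 30 tested muscle genes, with a median of 0.978, so these shares do not apply to them. Promoter windows came from RefSeq (GRCm38.p6) and exon overlaps from GENCODE M21.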

Additional observations from a re-analysis of the deposited data

Results flagged for a closer look

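Groups of 5 libraries, 1 gene and 1 label at a time, were read by the gap criterion of Dixon's test on CPM without a log scale. Of 62 such groups, 28 held 1 library set apart from the other 4. The chance rate of about 1 in 20 for this criterion holds for normally distributed values. It does not apply to CPM as skewed as these, so the 28 are no measure of an excess. The groups are not independent, since the genes follow 1 order of libraries. In 23 of them the library was IL6 shRNA1 library 5, the highest of its label. Its CPM values were 323 for Myh1, 56.6 for Myh2, 2703 for Myh4, 484 for Mylpf, 650 for Myl1 and 584 for Mybpc2 among thick filament genes. They were 3392 for Acta1, 1082 for Tnnt3, 393 for Tnni2 and 331 for Neb among thin filament genes, and 729 for Actn3, 86.4 for Myoz1, 413 for Ttn and 106 for Tcap at the Z-disc. For calcium handling they were 1665 for Atp2a1, 165 for Casq1, 419 for Pvalb, 351 for Ryr1, 54.8 for Cacna1s and 49.3 for Jph1, and for energy supply 895 for Ckm, 508 for Pygm and 359 for Eno3.

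Control library 3 lay apart from the other control libraries for Myh2 (18.9 CPM), Mylpf (64.9 CPM), Myoz1 (6.79 CPM) and Tcap (16.5 CPM). Control library 1 lay apart for Myh7, at 0.849 CPM, which rests on 20 counts.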

How the results depend on the processing

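For the 30 tested genes, 21 alternatives each gave 630 values of the fold change, of which 598 kept their direction and their side of the threshold, 25 passed it newly, 6 no longer passed it and 1 reversed, Myh2 at -0.18 without the 3 libraries farthest out on the first principal component. All 6 losses were those of Tnnt1. The number of the 32 genes called higher moved from 1 to 16 with DESeq2, 2 with FPKM and a pseudocount of 1 (Tnnt1 and Tnnc1), 0 with the replicate block, 0 without those 3 libraries, and 0 to 9 when each library was left out in turn. For the other skeletal muscle genes it moved from 1 to 22 with DESeq2, to 2 with the replicate block, and to 0 to 18 when each library was left out. Calls over all genes moved from 1775 to 3027 with DESeq2, 755 with the replicate block, 212 without the 3 libraries, 864 to 2774 when each library was left out, and 720 with the fibre level as a covariate, of which 671 were shared with the 1775. No gene of either muscle list was called lower under the 21 alternatives run for these lists, which do not include the covariate. Apart from what the construction of the fits with fewer libraries implies, the cause was not tested.

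The sample numbers do not pair the samples: the correlation of same-numbered deviations was -0.296, -0.064, 0.124, 0.277 and -0.253, and only number 3 matched its own number best. By raw counts instead of FPKM the Myh4 share was 79.2% in IL6 shRNA1 library 2, 87.7% in IL6 shRNA1 library 5 and 72.9% in control library 3. Without its gene of highest mean FPKM, Tnnt1, the slow-fibre sum spanned 5.06 in place of 3.25 on the log2 scale. What then remained in IL6 shRNA1 library 5 was mostly Mybpc1, at 14.4 FPKM. RLE and upper-quartile scaling shifted the median of all genes by 0.0152 and 0.00378 on the log2 scale. Depth limits Myh7 (0 to 20 counts), Tnnc2 (0 to 3 counts) and the myosin shares of the 3 libraries with 71 to 340 counts.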

Other observations

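Genes of the muscle lineage other than the fibre genes were read in the same libraries, with earlier results known. Myod1, which commits cells to the muscle lineage, stood at 0.481, 3.85, 2.18, 5.99 and 3.81 CPM in IL6 shRNA1 libraries 1 to 5 and at 0.127, 0.195, 2.83, 2.53 and 0 CPM in control libraries 1 to 5. It was highest in IL6 shRNA1 library 4, as Myog was, and its groups overlapped, with an adjusted p of 0.323 in edgeR's quasi-likelihood test. Pax7, the marker of satellite cells, had at most 25 counts in any library and failed the filter on low counts.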
